A study of Zea mays with 4 samples.

Results

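The loci described here are 178 positions of the maize (Zea mays) genome whose RNA was at least 2-fold under-represented in the polysome-bound fraction of endosperm, in rea1 and wild type alike. They were chosen among 9391 eligible loci out of 29642 listed. An eligible locus lay on a nuclear chromosome or scaffold, was at least 600 and under 20000 bp long and had a mean of 5 to below 100 FPKM over the 4 libraries. FPKM is a fragment number divided by transcript length and library size. Each ratio was taken as a difference of log2(FPKM + 1) and centred on its median over the 17682 loci whose mean reached 1 FPKM, so 0 stands for the typical locus. A member had a polysome-bound over total ratio of -1 or less in both genotypes. Its rea1 over wild-type ratio lay between -1 and 1 in each RNA fraction, so large genotype differences were kept out. The members were chosen by these measured FPKM values, and the ratios below are therefore a description with no test.

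The 4 libraries, with 1 in each group, were polysome-bound and total RNA of rea1 endosperm and polysome-bound and total RNA of wild-type endosperm, all at 15 days after pollination. Per the labels' protocols, both RNA fractions came from equal amounts of powdered tissue. The polysome-bound fraction was what sedimented through sucrose with the ribosomes, and the total fraction was taken from the cleared extract. The series text speaks of triplicates, but each group has a single value per locus, so no spread between replicates and no p-value could be given, and the labels do not say which gene or allele rea1 carries or whether kernels were pooled. The files give positions on B73 RefGen_v3 and no gene names, so members are named by chromosome, start and end, counted from 1, and neither their functions nor endosperm markers could be looked up.

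A polysome is an mRNA carried by several ribosomes, and the share of a transcript found there is a common measure of how actively it is translated. Transcripts that are long or well initiated tend to load many ribosomes. RNAs held in messenger ribonucleoprotein particles, RNAs with inhibitory upstream reading frames and RNAs without a coding sequence tend to carry few ribosomes or none. Endosperm at this stage makes storage proteins and starch at a high rate. The yeast protein of the same name, Rea1 or midasin, is an AAA ATPase needed to mature the large ribosomal subunit. Because FPKM is a share of its own library, a centred ratio ranks a locus against other loci and does not measure the fraction of its molecules on ribosomes.

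The members lay near the eligible median by their total RNA level and under it by their polysome level. In rea1 their median was 4.10 FPKM on polysomes, against 19.8 FPKM in total RNA. In wild type it was 3.25 FPKM in polysome-bound RNA, against 11.3 FPKM in total RNA. Over all eligible loci the medians were 13.8 FPKM in rea1 polysome-bound and 18.8 FPKM in rea1 total RNA, and 10.97 FPKM in wild-type polysome-bound and 11.3 FPKM in wild-type total RNA. The gap between the fractions is fixed by the choice of the members. The mean of 5 FPKM needed for eligibility had to come mostly from total RNA in them. Their total RNA level, and its closeness to the eligible median, is therefore shaped by the choice too. In bulk tissue, fewer cells of a type and less RNA per cell cannot be told apart.

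Summed over the members, the FPKM in rea1 came to 1161 on polysomes and 5513 in total RNA, and in wild type to 964 on polysomes and 3306 in total RNA. Total RNA held 4.75 times the polysome-bound sum in rea1 and 3.43 times in wild type, where all eligible loci together gave 1.35 and 1.01. The members made up 0.137% of the summed FPKM of rea1 polysome-bound RNA and 0.632% of that of rea1 total RNA. They made up 0.108% of wild-type polysome-bound RNA and 0.338% of wild-type total RNA.

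**Figure D1:**
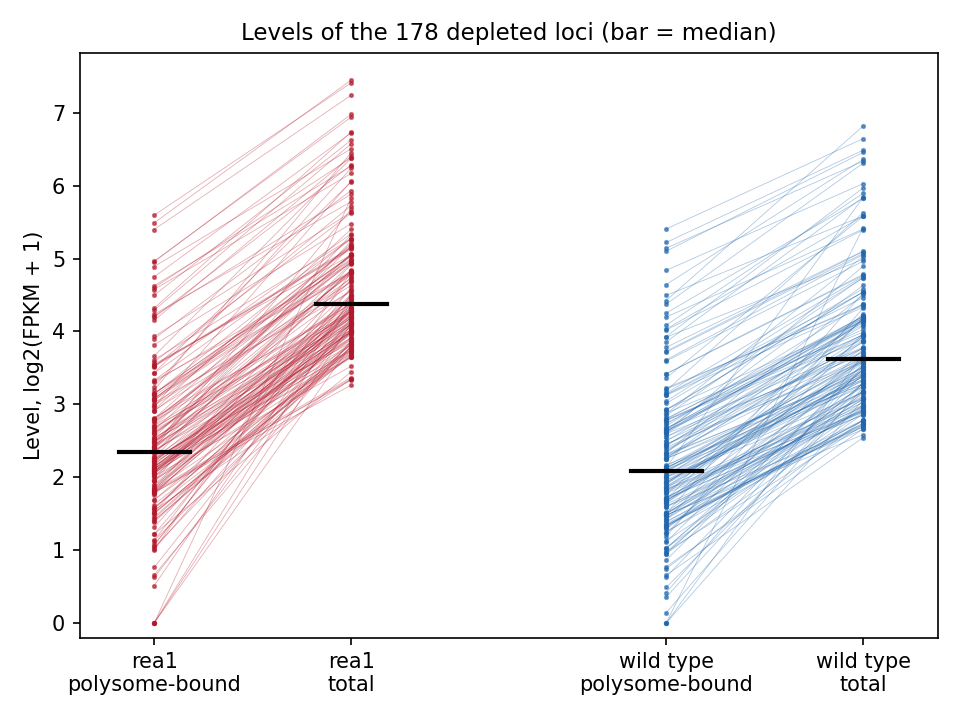
Level of each of the 178 members, as log2(FPKM + 1), in rea1 polysome-bound, rea1 total, wild-type polysome-bound and wild-type total RNA (1 library each); a line joins the values of a locus within a genotype and the black bar is the median over loci. Every line runs upward from polysome-bound to total RNA, as the rule requires, and the medians of 4.10 and 3.25 FPKM in polysome-bound RNA lie under those of 19.8 and 11.3 FPKM in total RNA.

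How large the depletion was differed widely among members. The centred log2 ratio of polysome-bound over total RNA had a median of -1.57 in rea1, with the middle 50% of members between -1.93 and -1.27, and a median of -1.42 in wild type, with the middle 50% between -1.76 and -1.24. A ratio of -2 or less, which is a 4-fold depletion, was found for 38 members in rea1, where 1.12% of the eligible loci were that low. It was found for 29 members in wild type (0.639% of the eligible loci) and for 22 members in both genotypes (0.362%). A ratio of -3 or less was found for 6 members in rea1, where 21 eligible loci were that low. In wild type it was found for 7 members, where 11 eligible loci were that low. In both genotypes it was found for 5 members, and the eligible loci that low in both were not counted. These 5 were the locus on chromosome 8 at 122433073 to 122435587 and the 4 members listed at 0 on polysomes. Such a 0 can be a failed estimate.

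Without the pseudocount and the centring the folds are larger. Among the 174 members above 0 in all 4 libraries, total RNA exceeded polysome-bound RNA by a median of 4.62-fold in rea1, with a range of 2.99 to 49.0, and by a median of 3.34-fold in wild type, with a range of 2.17 to 31.6. These folds are as deposited and include the shift of the typical locus, whose log2 ratio was -0.47 in rea1 and -0.06 in wild type.

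The most depleted members above 0 in all libraries, ranked by the mean of the centred ratios of both genotypes, lay on chromosomes 7, 8, 2 and 3. The locus on chromosome 7 at 22637422 to 22639698 had 4.39 FPKM in rea1 polysome-bound and 50.1 FPKM in rea1 total RNA, and 3.38 FPKM in wild-type polysome-bound and 56.1 FPKM in wild-type total RNA. Its centred ratios were -2.78 in rea1 and -3.64 in wild type. With total RNA levels above 50 FPKM in both genotypes, it was the most abundant of the 6 most depleted loci. Total RNA exceeded polysome-bound RNA 11.4-fold in rea1 and 16.6-fold in wild type.

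On chromosome 8, RNA from 122433073 to 122435587 had 1.01 FPKM in rea1 polysome-bound and 27.1 FPKM in rea1 total RNA, and 1.27 FPKM in wild-type polysome-bound and 18.97 FPKM in wild-type total RNA. Next came chromosome 2 at 205136417 to 205140949, with 0.427 FPKM in rea1 polysome-bound and 20.9 FPKM in rea1 total RNA, and 0.280 FPKM in wild-type polysome-bound and 8.85 FPKM in wild-type total RNA. It had the widest fold among members above 0 in all libraries, 49.0 in rea1 and 31.6 in wild type. Since its polysome values are below 1 FPKM, these folds rest on very low levels, and on the scale with the pseudocount its centred ratios were -3.47 in rea1 and -2.88 in wild type.

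The other 3 of these 6 loci had deposited folds of similar size in both genotypes, the shift of the typical locus included. In the order below, their centred ratios were -2.95, -2.98 and -2.86 in rea1 and -3.05, -2.64 and -2.73 in wild type. Their folds too rest on low levels, with wild-type polysome-bound values below 1 FPKM. On chromosome 2 at 64573886 to 64574874, polysome-bound RNA stood at 0.696 FPKM in rea1 and 0.336 FPKM in wild type, under total levels of 17.2 and 10.5 FPKM, which are folds of 24.7 and 31.4. On chromosome 3 at 114137641 to 114138568 the polysome-bound values were 1.09 FPKM in rea1 and 0.403 FPKM in wild type, under totals of 21.8 and 8.10 FPKM. The folds there were 19.98 in rea1 and 20.1 in wild type. On chromosome 2 at 230240378 to 230246080 the polysome-bound values were 1.11 FPKM in rea1 and 0.552 FPKM in wild type, under totals of 20.3 and 9.75 FPKM, which are folds of 18.2 and 17.7.

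A few members were listed at 0 on polysomes. This held for 4 loci in rea1 and for 3 of these in wild type. Of the 9391 eligible loci, 7 were at 0 in rea1 polysome-bound RNA and 8 in that of wild type. No member was at 0 in total RNA, since such a locus cannot meet the rule. The most abundant of them, on chromosome 2 at 46596633 to 46597624, was at 0 on polysomes in both genotypes and had 55.8 FPKM in rea1 total RNA and 41.9 FPKM in wild-type total RNA. On chromosome 6, polysome-bound RNA from 86788932 to 86789793 was listed at 0 in rea1 and at 0.103 FPKM in wild type, with totals of 20.1 FPKM in rea1 and 8.40 FPKM in wild type. Another, on chromosome 5 at 38103 to 51860, was listed at 0 in both polysome-bound libraries, with totals of 16.3 FPKM in rea1 and 11.9 FPKM in wild type. An exact 0 in a table of FPKM can be a failed estimate, so no fold is given against it; without these 4 loci the median centred ratio was -1.57 in rea1 and -1.40 in wild type.

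The 3 most abundant members had moderate depletion. Over all members the centred ratio did not follow mean FPKM, with a Spearman rho of 0.007 in rea1 and -0.029 in wild type. The most abundant member, on chromosome 2 at 33136328 to 33138277, had 47.3 FPKM in rea1 polysome-bound and 169 FPKM in rea1 total RNA, and 41.4 FPKM in wild-type polysome-bound and 99.0 FPKM in wild-type total RNA. Second was chromosome 5 at 48243631 to 48248608, with 44.0 and 174 FPKM in rea1 polysome-bound and total RNA, and 34.3 and 79.7 FPKM in those of wild type. Chromosome 7 at 171076994 to 171079425 followed, with 41.2 and 150.1 FPKM in rea1, and 36.3 and 88.7 FPKM in wild type, in the same order of fractions. For these 3 loci the centred ratios lay between -1.49 and -1.35 in rea1 and between -1.21 and -1.13 in wild type, so the limit of a 2-fold depletion was passed by transcripts near the top of the abundance range too.

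The next 3 by abundance were less uniform. Chromosome 8 at 93946443 to 93948966 had 30.0 and 125 FPKM in rea1 polysome-bound and total RNA, and 20.5 and 112 FPKM in those of wild type. It had the lower ratio in wild type, -2.33, against -1.56 in rea1. The 12207-bp locus on chromosome 10 at 33613533 to 33625739 had 23.3 and 82.4 FPKM in rea1 and 33.3 and 86.8 FPKM in wild type, with nearly equal centred ratios of -1.31 in rea1 and -1.29 in wild type. The 720-bp locus on chromosome 9 at 106831370 to 106832089 had 30.2 and 122 FPKM in rea1 and 21.5 and 46.9 FPKM in wild type. Its ratio was -1.51 in rea1 and -1.03 in wild type, close to the limit of the rule.

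Around the limit of -1 the values ran on without a gap. Nearest inside it was the locus on chromosome 2 at 28759345 to 28760459, with -1.0001 in rea1 and -1.02 in wild type. It was followed by chromosome 5 at 68556120 to 68560410, with -1.004 and -1.09, and by chromosome 7 at 163011503 to 163016093, with -1.005 and -1.68. Nearest outside it were chromosome 8 at 102834520 to 102837247, with -2.18 in rea1 and -0.998 in wild type, chromosome 3 at 206091518 to 206100888, with -0.995 and -1.07, and chromosome 4 at 28947994 to 28952113, with -0.995 and -1.04. The 178 members are therefore a part of a continuous distribution.

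Depletion in rea1 went with depletion in wild type. The 2 ratios share no library, but they share the listed spans and the filter on mean FPKM. Both were used by the rule, so their overlap is a description. Of the 17682 loci used for centring, 8.08% had a centred ratio of -1 or less in rea1, 6.04% in wild type and 3.1% in both. Among the eligible loci, 611 (6.51%) were this low in rea1, 469 (4.99%) in wild type and 247 (2.63%) in both. These 247 were 40.4% of the rea1 list and 52.7% of the wild-type list. The share of the rea1 list was 24.2% with a pseudocount of 5 and 24.4% without centring. Of them, 178 also met the limits on genotype differences, which is 1.9% of the eligible loci.

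Below the typical ratio, the lower a locus was in one genotype, the more often it was also depleted in the other. Of the eligible loci with a wild-type ratio above -1.5 and up to -1, 42.7% were at -1 or less in rea1. The share was 64.2% for wild-type ratios above -2 and up to -1.5, 83.7% of 49 loci above -3 and up to -2, and 100% of the 11 loci at -3 or less. These 11 include the 4 members listed at 0 on polysomes. For wild-type ratios above 0 and up to 1 the share was 2.21%, and for the 465 loci above 1 it was 4.73%. Binned the other way, by the rea1 ratio, the shares in wild type were 26.5%, 52.9%, 67.9% and 71.4% over the same 4 steps downward. Over all 9391 eligible loci the ratios of both genotypes correlated with r = 0.571 (Pearson) and rho = 0.490 (Spearman), which describes these loci and carries no p-value.

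**Figure D2:**
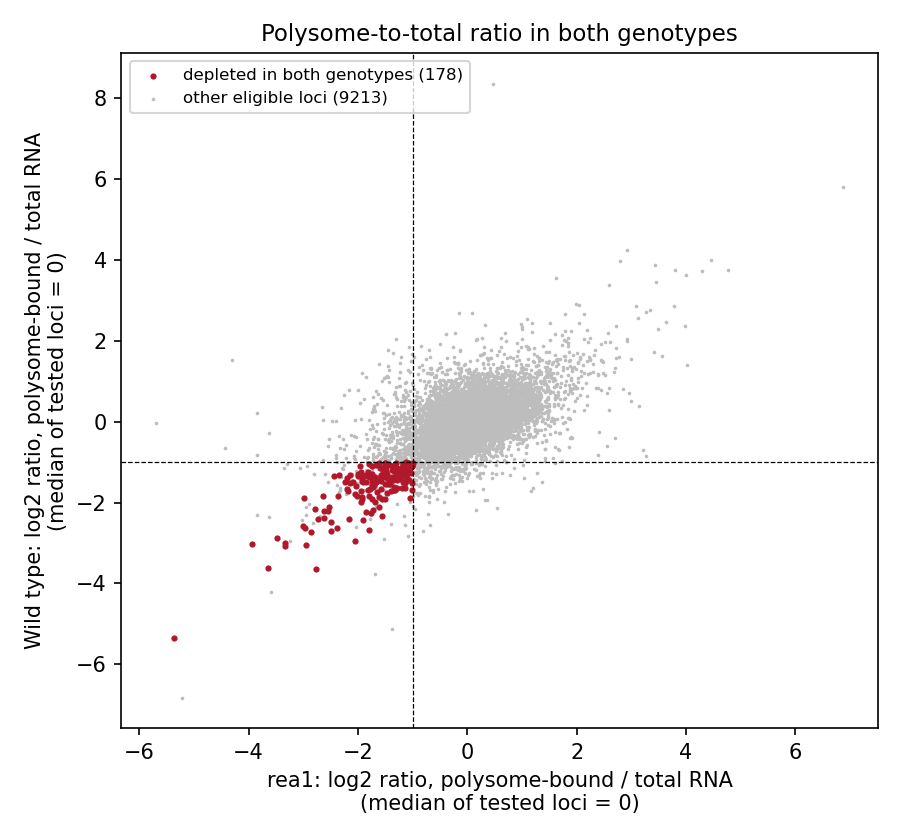
Centred log2 ratio of polysome-bound over total RNA in rea1 (horizontal axis) and in wild type (vertical axis) for the 178 members (red) and the other eligible loci (grey), with the limits of -1 as dashed lines. The red points fill the lower left corner next to the limits; grey points in that corner are the 69 loci that were as low in both genotypes but outside the limits on genotype differences.

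**Figure D3:**
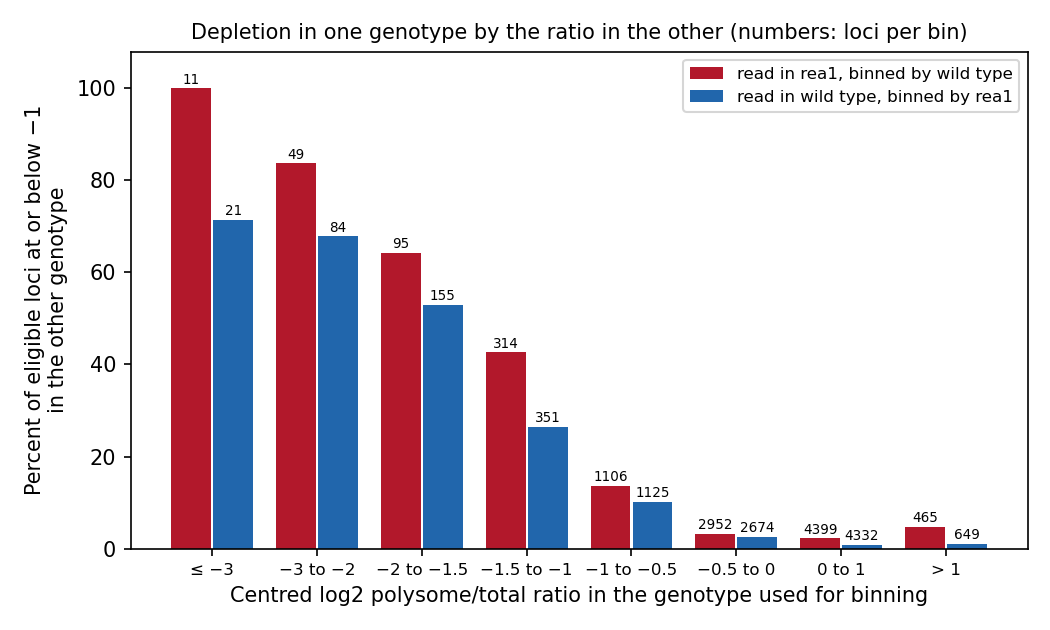
Percent of eligible loci at -1 or less in rea1 when binned by the wild-type ratio (red), and in wild type when binned by the rea1 ratio (blue), with the number of loci in each bin above its bar. The red bars go from 2.21% for loci above 0 and up to 1 to 100% for the 11 loci at -3 or less, and stand at 4.73% for loci above 1.

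Shared depletion was counted at each level of abundance. Of the eligible loci depleted in wild type, 58.4% were also depleted in rea1 at a mean of 5 to below 10 FPKM, 51.4% at 10 to below 20, 42.9% at 20 to below 50 and 45.5% of 33 loci at 50 to below 100 FPKM, where 8.4%, 6.25%, 4.44% and 5.81% of all eligible loci of these classes were depleted in rea1. Of those depleted in rea1, the shares that were also depleted in wild type were 45.3%, 40.3%, 34.6% and 27.3% in the same order of abundance, where 6.51%, 4.9%, 3.58% and 3.48% of all eligible loci were depleted in wild type. The 364 eligible loci at -1 or less in rea1 alone had a median of -0.35 in wild type. Loci at -1 or less in wild type alone, 222 in number, had a median of -0.55 in rea1.

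How far the genotypes can differ in the depletion of a member is limited by the rule. The rea1 ratio minus the wild-type ratio had a median of -0.11 over the members, with the middle 50% between -0.36 and 0.10. It lay within 0.5 of 0 for 143 of the 178 members (80.3%), where 63.7% of the eligible loci did. It was -0.5 or less for 28 members (15.7%, against 16.7% of the eligible loci) and 0.5 or more for 7 (3.93%, against 19.6%). The ratio was lower in rea1 than in wild type for 103 members, or 57.9%, where 45.4% of the eligible loci had it lower in rea1. This split depends on the processing. With ratios as deposited, 164 members (92.1%) had the lower ratio in rea1, as did 75.6% of the eligible loci. With a pseudocount of 0.1 it was 50% of the 210 loci then chosen and the order of the medians turned, to -1.524 in rea1 and -1.537 in wild type, while with a pseudocount of 5 it was 74.1% of 85.

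The members with the widest difference downward in rea1 differed in both fractions. The member on chromosome 8 at 3296825 to 3299812 had 0.543 FPKM in rea1 polysome-bound and 15.98 FPKM in rea1 total RNA, and 1.04 FPKM in wild-type polysome-bound and 6.83 FPKM in wild-type total RNA. Chromosome 1 at 279748502 to 279753240 had 4.34 and 39.1 FPKM in rea1 polysome-bound and total RNA, and 5.95 and 17.5 FPKM in those of wild type. Next was chromosome 2 at 133476985 to 133477853, with 1.05 and 13.5 FPKM in rea1 and 1.57 and 5.68 FPKM in wild type. In all 3 the total value was more than 2-fold higher in rea1 while the polysome-bound value was lower in rea1, as deposited, which gave differences of -1.11, -1.09 and -1.03 between the centred ratios.

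The widest differences upward in rea1 were all on chromosome 7. The locus at 137198688 to 137200627 had 3.99 and 27.7 FPKM in rea1 polysome-bound and total RNA, and 1.83 and 22.0 FPKM in those of wild type, a difference of 0.91. The 6993-bp locus at 5091527 to 5098519 had 1.66 and 11.8 FPKM in rea1 and 1.34 and 14.6 FPKM in wild type, a difference of 0.88. The locus at 22637422, the lowest by the mean of both centred ratios, had the third, a difference of 0.87. In these 3 loci the depletion was stronger in wild type and remained 6.94-fold or more in rea1 by the deposited FPKM.

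The rule held the rea1 over wild-type ratio of each member between -1 and 1, so the genotype values of the members are close to those of other loci by choice. In polysome-bound RNA 92 members lay above the median rea1 over wild-type ratio and 86 below it, so 51.7% were above, where 57.9% of the eligible loci were. In total RNA 113 lay above it and 65 below, so 63.5% were above, where 54.4% of the eligible loci were. The median centred ratio was 0.014 in polysome-bound and 0.145 in total RNA for the members, and 0.078 and 0.060 for the eligible loci. The sign of the total RNA median depends on the scaling: it was -0.012 with equal sums without the 50 most abundant loci. As deposited, the medians of the members were 0.26 in polysome-bound and 0.76 in total RNA, where the typical locus stood at 0.24 and 0.62. The higher value was in rea1 for 123 members (69.1%) in polysome-bound RNA, against 78.9% of the eligible loci, and for 171 members (96.1%) in total RNA, against 88% of them.

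Length was not used by the ratio limits, and the members were shorter than the other loci in the same length range. Their median length was 2836 bp, with the middle 50% between 1822 and 5380 bp, against 4329 bp (2754 to 6596 bp) for all eligible loci. Short length was not particular to them. The median was 2909 bp for eligible loci at -1 or less in rea1 alone and 3511 bp for those in wild type alone. Members were 4.38% of the eligible loci of 600 to below 1200 bp (27 of 617), 3.45% of those of 1200 to below 2400 bp (44 of 1276), 1.55% of those of 2400 to below 4800 bp (54 of 3476) and 1.32% of those of 4800 to below 20000 bp (53 of 4022). The length is that of the genomic span, introns included, and the length of the mature RNA is not given; the difference was not tested, since loci are not replicates.

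The same gradient was seen for the opposite class. Under mirrored limits, with ratios of 1 or more in both genotypes, 150 eligible loci (1.6%) were enriched on polysomes. They were 3.89%, 2.51%, 1.58% and 0.97% of the eligible loci over the same 4 length classes, and their median length was 2979 bp. Short loci were thus more frequent at both ends of the ratio. Among the members themselves the median rea1 ratio was -1.80, -1.68, -1.53 and -1.51 from the shortest to the longest class, and the median wild-type ratio was -1.40, -1.52, -1.38 and -1.37. Over the 178 loci, length and ratio had a Spearman rho of 0.17 in rea1 and 0.10 in wild type.

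Less abundant loci were also more often members. Members were 2.89% of the eligible loci at a mean of 5 to below 10 FPKM, 1.88% at 10 to below 20, 0.896% at 20 to below 50 and 0.95% at 50 to below 100 FPKM. The mean includes the polysome-bound values, so depletion itself lowers it. In this respect the enriched loci differed in shape, at 1.55%, 2.1%, 1.24% and 1.16%. The share of members was higher in the shortest than in the longest length class at each level of abundance. At 5 to below 10 FPKM it was 6.12% in the shortest class and 2.52% in the longest, from 15 and 35 loci. At 10 to below 20 FPKM it was 3.27% and 1.1%, from 5 and 14 loci, with 4.67% in the class of 1200 to below 2400 bp between them. At 20 to below 50 FPKM it was 3.45% and 0.0976%, from 5 loci and 1 locus. At 50 to below 100 FPKM the shares were 2.7% and 0.904%, from 2 and 3 loci.

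**Figure D4:**
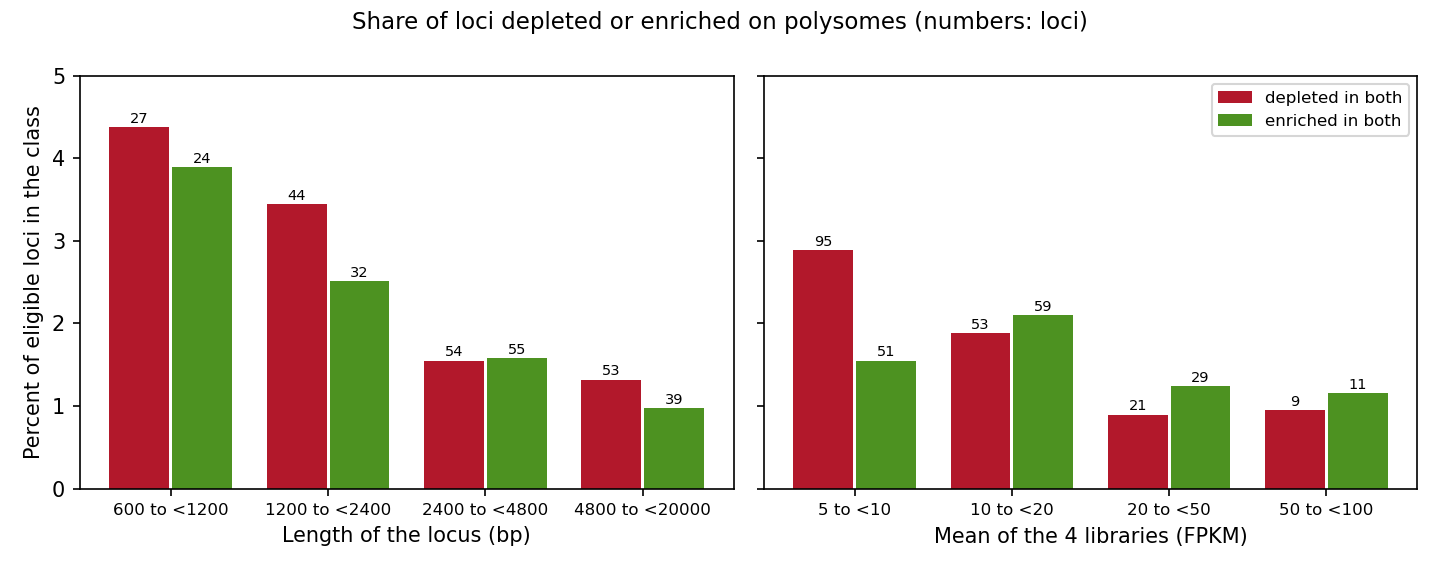
Percent of eligible loci that were depleted (red) or enriched (green) on polysomes in both genotypes, by length of the locus (left) and by mean FPKM of the 4 libraries (right), with the number of loci above each bar. Both classes thin out with length, from 4.38% to 1.32% for depleted and from 3.89% to 0.97% for enriched loci, while with abundance the depleted loci go from 2.89% to 0.95%.

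The extremes of length show the range. The shortest member, 619 bp on chromosome 1 at 273957175 to 273957793, had 1.19 and 12.9 FPKM in rea1 polysome-bound and total RNA, and 2.29 and 8.07 FPKM in those of wild type. Next came a pair of loci of equal length, 633 bp. That on chromosome 2 at 226491953 to 226492585 was listed at 0 in both polysome-bound libraries, with totals of 13.0 FPKM in rea1 and 7.35 FPKM in wild type. That on chromosome 8 at 137300980 to 137301612 had 8.48 and 74.6 FPKM in rea1 polysome-bound and total RNA, and 6.29 and 31.7 FPKM in those of wild type. The longest, 18608 bp on chromosome 1 at 65423142 to 65441749, had 3.53 and 17.3 FPKM in rea1 and 1.83 and 6.56 FPKM in wild type. The next, 16980 bp on chromosome 5 at 34806454 to 34823433, had 22.8 and 70.9 FPKM in rea1 and 14.1 and 30.8 FPKM in wild type, with a wild-type ratio of -1.01 at the edge of the rule. Members were thus found near both ends of the length range. Their depletion follows from the rule. Over the 174 members above 0 in all libraries the lowest deposited fold was 2.99 in rea1 and 2.17 in wild type.

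The members were spread over all 10 chromosomes, and none was among the 39 eligible loci on scaffolds. They made up 3.01% of the eligible loci of chromosome 7 (22 of 730) and 3.0% of those of chromosome 8 (26 of 866), and from 0.913% (7 of 767, chromosome 6) to 2.29% (27 of 1181, chromosome 5) elsewhere. In the outer 20% at either end of a chromosome, taken up to its last listed locus, lay 53.4% of the members and 60.5% of the eligible loci. Within 1 kb of another locus lay 19.1% of the members and 20.2% of the eligible loci. With 7 to 27 members per chromosome, these shares are given as counts of loci and were not tested.

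Some members lay side by side. There was no run of 3 or more, and 10 members (5.62%) were next to another member in the order of positions, where 1.29% of the eligible loci were next to one. The share of members was 4.76% among entries with a span of their own and 2.86% with a pseudocount of 0.1. They formed 4 pairs at neighbouring positions and 1 pair at the same position, and were singled out after their values were seen. On chromosome 1 the pair at 269990792 to 269993014 and 269998480 to 269999383 had ratios of -2.20 and -1.81 in rea1 and -1.68 and -1.31 in wild type. On chromosome 3 the pair at 14837783 to 14844132 and 14849060 to 14852943 had -2.65 and -1.97 in rea1 and -1.83 and -1.09 in wild type. Both of these pairs were thus lower in rea1, and the same locus of each pair was the lower one in both genotypes.

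The pairs on chromosomes 10 and 2 lay nearer the limit of the rule. On chromosome 10 at 146640950 to 146641800 and 146642045 to 146648938 the ratios were -1.13 and -1.43 in rea1 and -1.02 and -1.55 in wild type. On chromosome 2 at 166248729 to 166253814 and 166258812 to 166260229 they were -1.05 and -1.06 in rea1 and -1.16 and -1.10 in wild type. The 202 other loci next to a member, all at a mean of 1 FPKM or more, had median ratios of -0.09 in rea1 and -0.06 in wild type, close to the typical locus. Of them, 10.4% in rea1 and 6.93% in wild type were at -1 or less, where 8.08% and 6.04% of all such loci were.

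The listed positions are spans rather than single transcripts. None of the 28825 distinct spans overlapped another, while 1595 entries shared their span with another entry. Among the members 10 entries (5.62%) did so, on 9 spans, against 5.31% of the eligible loci. On chromosome 3 at 49989997 to 49992537 both entries were members. They had 2.87 and 2.61 FPKM in rea1 polysome-bound RNA and 29.2 and 25.2 FPKM in rea1 total RNA. In wild type they had 0.929 and 0.818 FPKM in polysome-bound and 10.2 and 10.7 FPKM in total RNA. Their values are close to each other in every library, and whether they share reads was not examined.

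On the other 8 spans the second entry was no member, and 4 of these second entries had a mean below 1 FPKM. On 3 spans the second entry was in the eligible range as well, and there the entries differed. On chromosome 3 at 175744246 to 175747343 the member had 8.16 and 86.6 FPKM in rea1 polysome-bound and total RNA, and 9.27 and 46.9 FPKM in those of wild type. The other entry had 57.3 and 164 FPKM in rea1 and 58.4 and 60.6 FPKM in wild type, and its ratios were -1.03 in rea1 and 0.01 in wild type, against -2.79 and -2.16 for the member. On chromosome 9 at 140610164 to 140617939 the member had 3.14 and 18.8 FPKM in rea1 and 5.37 and 16.1 FPKM in wild type, with ratios of -1.79 and -1.36, and the other entry had ratios of 0.26 in rea1 and 0.44 in wild type. On chromosome 1 at 101786276 to 101787926 the ratios were -1.75 in rea1 and -1.30 in wild type for the member, and -0.17 and -0.47 for the other entry. Depletion past the limit in both genotypes was thus seen for 1 of the 2 entries of each of these spans.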

How the data were processed

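The authors deposited FPKM values, 1 file per group, for rea1 and wild-type maize endosperm (polysome-bound and total RNA). Bowtie 0.12.2 and the build B73 RefGen_v3 are named, per the submitters' processing notes. How FPKM was computed, on which annotation, with which denominator and from which replicates is not given in the sources used here. Depth is not given. Low values did not sit on a clear grid (the commonest total over polysome-bound ratio of loci below a mean of 0.5 FPKM was 1.40 in rea1 and 1.23 in wild type, with 3.60% and 4.77% of such loci within 0.02 (log2) of it), so no fragment counts and no counting intervals were derived.

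Ratios were differences of log2(FPKM + 1), which understate folds of low loci, minus their median over loci whose mean reached 1 FPKM. Starts count from 0 in the files: 48 of 73 organelle loci then have a length divisible by 3, against 16 otherwise. The gene table at hand is of another build, so no names were joined and the gene lists were not used. Named loci were the 6 most depleted, the 6 most abundant, the 3 at each end of the genotype difference, the 2 at each end of length (3 at the short end, with a tie), runs of 3 or more, the 3 on each side of the limit, and up to 3 listed at 0. Pairs and shared spans were chosen after their values were seen. The members, lists and rules were chosen with earlier results of these data known. With 1 library per group and members chosen on these values, no test was run. Alternatives were a pseudocount of 0.1 or 5, other loci for the medians, other scalings, and fewer entries. The calculation was tested on simulated data with little noise and loci set well past the limit. That checked the code and does not tell how low or borderline loci behave. The work used Python 3.11.15 with matplotlib 3.10.9, scipy 1.17.1, pandas 2.3.3 and numpy 2.4.6.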

Additional observations from a re-analysis of the deposited data

Results flagged for a closer look

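One member went opposite ways between the genotypes in the RNA fractions by more than 0.5 on each side, and the difference was not tested. The locus on chromosome 1 at 279748502 to 279753240 was the 1 member with a rea1 over wild-type ratio at least 0.5 below the median in polysome-bound RNA (-0.63) and at least 0.5 above it in total RNA (0.50). Its total value lies just past that limit, and the neighbouring case on chromosome 8 at 3296825 to 3299812, with -0.65 and 0.498, lies just short of it. How many of all eligible loci met the same limits was not counted, so it is not known whether 1 member is many or few.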

How the results depend on the processing

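With 1 library per group no library could be left out, and no paired analysis was possible because each group has a single library. In all, 12 summary values were recomputed under 9 alternatives, and 82 values stayed within the 95% binomial interval of the main value (for the number of members, within 1.5 times), while 26 did not. The interval treats loci as independent, so it is a yardstick for the size of a change and no test. The alternatives with entries above 0 in all libraries and with unshared coordinates kept 174 and 168 of the members. Most of their values could therefore move little. The members numbered 178, and 170 with median-of-ratios scaling, of which 164 were the same entries. With a pseudocount of 5 there were 85, of which 75 were the same, and the median ratios were -1.46 in rea1 and -1.25 in wild type. Their median length was then 2367 bp, members were 2.59% of the shortest and 0.448% of the longest length class, 74.1% had the lower ratio in rea1, and 24.2% of the loci depleted in rea1 were also depleted in wild type. With a pseudocount of 0.1 the wild-type median ratio was -1.54, the median rea1 over wild-type ratio in total RNA was 0.048, exactly 50% had the lower ratio in rea1, the shared part was 46.8%, and members were 1.74% of the longest class. With medians over all entries, the rea1 over wild-type medians were 0.14 in polysome-bound and 0.30 in total RNA, the shared part was 35.1%, and members were 1.79% of the longest class. Without centring there were 252 members, of which 127 were the same, the medians were 0.21 in polysome-bound and 0.46 in total RNA, 70.6% had the lower ratio in rea1, the shared part was 24.4%, and members were 2.19% of the longest class. With equal sums without the 50 most abundant loci the wild-type median ratio was -1.499, the total RNA median was -0.012, and the shared part was 46.9%. With unshared coordinates alone, 0% shared a span by construction. Other causes were not tested. Depth is unknown, so the counting error of low polysome values is too.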

Other observations

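A further 69 eligible loci were at -1 or less in both genotypes but outside the limits on genotype differences. Their median centred ratios of polysome-bound over total RNA were -1.99 in rea1 and -1.63 in wild type, and their median length was 2194 bp. Their rea1 over wild-type ratios had a median of 0.50 in polysome-bound RNA and 1.08 in total RNA. In polysome-bound RNA 45 of the 69 (65.2%) lay above the typical locus, where 57.9% of the eligible loci did. In total RNA 49 (71.0%) did, against 54.4%. Large genotype ratios are what set these loci apart from the members, so their size is given by the choice.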
